A study of Zea mays with 6 samples.

Results

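The MEKK and ZIK type MAPKKK genes of maize were followed through leaf, stem and root of plants under drought stress and of well-watered plants. The members were the genes given the subfamily MEKK or ZIK in the MAPKKK family list that accompanies the data. Of the 71 MAPKKK genes in that list, 34 belonged to these subfamilies, 26 of them MEKK and 8 ZIK, and 33 of the 34 were found by gene identifier among the 109715 identifiers of the expression tables. The remaining one, ZmMAPKKK24, is taken up with the ZIK genes.

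All plants were of the maize hybrid ZD619, labelled wild type, at a labelled stage of 2 to 3 leaves. The paper's methods give that stage for the thinning of the pots. Its figure shows drought and control plants of ZD619 at a later leaf stage, so the sampled plants may have been older than labelled. Drought plants were held without water until the soil reached 35% of relative soil water content (RSWC), and control plants were kept at 80% of RSWC. RNA of several plants was pooled, and each tissue had 1 drought library and 1 control library, so no value has a replicate error and no test within a tissue was possible. The treatment could be tested only across the tissues, with the tissue as a block, and the result is given after the counts. The tissues of a treatment may come from the same pooled plants. Such a test then measures agreement over tissues and not variation between plants. Values are in FPKM, a measure of sequenced fragments corrected for transcript length and for the size of the library.

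In a mitogen-activated protein kinase (MAPK) cascade, a MAPKKK phosphorylates and activates a MAPKK, which in turn activates a MAPK. MEKK type kinases are the plant MAPKKKs for which this activity is best established, and they include MEKK1, the ANP kinases and YODA of Arabidopsis and NPK1 of tobacco, with known roles in immunity, cell division, stomatal development and stress signalling. ZIK type kinases are the plant WNK kinases, named for the unusual place of the catalytic lysine. In Arabidopsis they are known from flowering time, the circadian clock and osmotic responses, and a role as an upstream kinase of the MAPK cascade is less settled for them.

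The sequences on hand for these genes were the primers designed for quantitative PCR of 6 members. Those of 3 MEKK genes called higher in drought in every tissue, and of the ZIK gene called in opposite directions in stem and root, are shown 5′ to 3′ because they identify transcripts that the results turn on. They are in lower case with no part marked, and they were not matched to a genome here.
ZmMAPKKK18 sense: ctcggtgagcaatgtgaggc
ZmMAPKKK18 antisense: tcaggagctggcactcgtctt
ZmMAPKKK19 sense: ggctgttggaagagcagtgtatg
ZmMAPKKK19 antisense: tcgcaccagttaggcagttgta
ZmMAPKKK20 sense: caatgcaggagaagctgacgc
ZmMAPKKK20 antisense: tccatgaagccgaccgataaa
ZmMAPKKK26 sense: aggatttgccagcatgagc
ZmMAPKKK26 antisense: tctactagaccgccacgaca

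The labels were set against marker genes first. Genes of photosynthesis in green tissue (10 genes) summed to 7887 FPKM in the drought library and 19588 FPKM in the control library of leaf, to 17859 and 19138 FPKM in the drought and control libraries of stem, and to 12.3 and 18.1 FPKM in those of root. The 5 root markers summed to 143 FPKM in the library labelled root drought and 38.8 FPKM in the library labelled root control, and to at most 11.4 FPKM in leaf and stem. The shoot meristem genes kn1, knox3 and lg3, taken as stem markers, were all listed at 0 in both stem libraries, so the stem label could not be backed by them.

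A gene was kept in a tissue if the mean of its pair was at least 0.1 FPKM and was called higher or lower if the fold change, on the log2(FPKM + 0.1) scale, was over 2. This scale understates the change of low genes. Against the treatment labels, the root libraries stood apart. The dehydrin dhn1, a protein that builds up in drying cells, had 184 FPKM in the drought library and 2.46 FPKM in the control library of leaf, but 3.03 FPKM in the library labelled root drought and 678 FPKM in the library labelled root control. A second dehydrin, dhn-2, had 68.1 against 3.87 FPKM in the drought and control libraries of leaf, and 158 against 811 FPKM in the libraries labelled drought and control of root. Of 5 genes with names of dehydrins, RAB or late embryogenesis abundant (LEA) proteins, all 5 were more than 2-fold higher in drought leaf, while 4 were more than 2-fold lower in the library labelled root drought and none was called in stem. The exception in root was RAB15, with 3301 FPKM in the library labelled drought and 1787 FPKM in the library labelled control.

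Genes picked by name for the abscisic acid pathway, the hormone pathway of water deficit, showed this contrast only in part. The names were not limited to signalling genes and took in vp14, which was called higher in drought leaf, and VP15. Of the whole list of such names, 11 of 45 kept were higher and 3 lower in drought leaf. In the library labelled root drought, 11 of 46 were higher and 10 lower. The SnRK kinases had 1 of 8 higher and 1 lower there. PP2C phosphatases include brakes of this pathway, and the ones that act so were not told apart here. Of the genes with PP2C names, 9 of 24 kept were higher and none lower in drought leaf. In the library labelled root drought 3 of 24 were higher and 9 lower, and 8 of those 9 were among the genes higher in drought leaf. Over all genes, 15.1% were higher and 14.4% lower in drought leaf, and 26.2% higher and 16.1% lower in the library labelled root drought. The PYL receptors went the other way in root, with 7 of 9 higher and none lower in the library labelled drought. The dehydrin and LEA names were listed after these values had been seen. What lies behind this was not tested. Every root value below is therefore given by the label of its library, and an exchange of the root labels would turn the sign of every root difference. In stem, dhn1 was at 0.188 FPKM in drought and 0.370 FPKM in control.

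**Figure D1:**
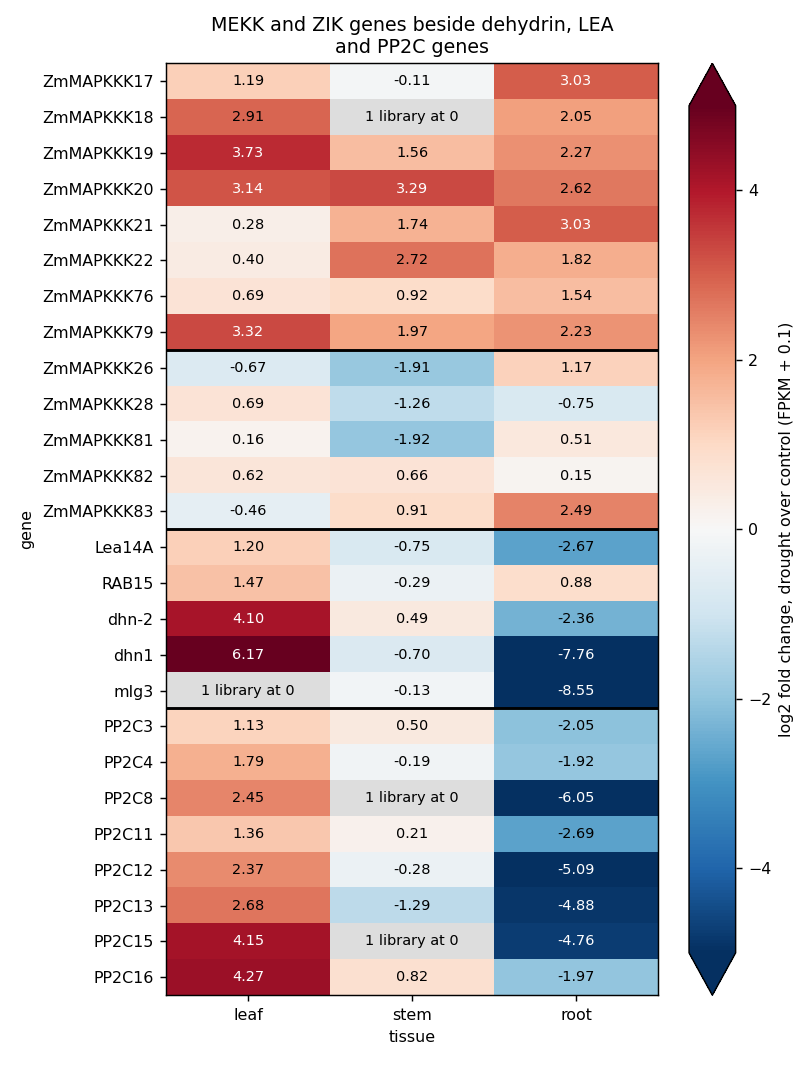
Log2 fold change of drought over control (FPKM + 0.1) in leaf, stem and root (columns) for 8 MEKK genes, 5 ZIK genes, the 5 dehydrin and LEA genes and the 8 PP2C genes that were higher in drought leaf and lower in the library labelled root drought (rows, blocks from top to bottom). These PP2C genes and the 8 MEKK genes were chosen after their values were seen; grey cells mark pairs with 1 library listed at 0. The MEKK block is positive in root, from 1.54 to 3.03, where dhn1 is at -7.76 and PP2C13 at -4.88.

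Among MEKK genes in leaf, 24 of 26 were kept, 5 were higher in drought and 1 was lower, beside 15.1% of all genes called higher and 14.4% called lower. In stem, 24 were kept, 8 were higher in drought and none was lower, beside 15.8% of all genes higher and 15.2% lower. In root, all 26 were kept, 14 were higher in the library labelled drought and 1 was lower, beside 26.2% of all genes higher and 16.1% lower. As shares of the MEKK genes kept, these are 20.8%, 33.3% and 53.8% higher in leaf, stem and root. The medians of the MEKK log2 fold changes were 0.28, 0.03 and 1.15, beside -0.01, 0.06 and 0.27 over all genes kept. In whole tissues, a change in the make-up of cells and a change in RNA per cell cannot be told apart. The green tissue genes were lower in drought leaf and the root markers higher in the library labelled root drought, and their part in these counts was not tested.

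Across the tissues, log2(FPKM + 0.1) was fitted with limma on treatment and tissue in all 6 libraries, which leaves 2 residual degrees of freedom. No MEKK gene of 25 tested and no ZIK gene of 6 passed an adjusted p of 0.05, beside 1 of all 40018 genes (0.0025%). The smallest adjusted p of any member was 0.986. Before adjustment, 6 MEKK genes and no ZIK gene had a p under 0.05, beside 3.26% of all genes, and the 6 were ZmMAPKKK18 to ZmMAPKKK22 and ZmMAPKKK79, all higher in drought. ZmMAPKKK20 had the smallest, with a mean log2 fold change of 3.02 ± 0.51 (limma SE, higher in each of 3 tissues by label). This SE is moderated with the variance of all genes, is not the spread over the tissues alone and does not measure variation between plants. With equal sums 5 MEKK genes had an unadjusted limma p under 0.05, beside 3.15% of all genes. Without the root pair 3 MEKK genes had, beside 3.53% of all genes. No MEKK gene passed after adjustment in either setting. The counts by fold are therefore descriptions of these libraries.

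The root figures depend on how the libraries are scaled. The FPKM summed to 908668 in the library labelled root drought and 544251 in the library labelled root control, and a single gene, GRMZM2G581850, held 9.55% of the sum in the library labelled drought. With both libraries rescaled to equal sums, root log2 fold changes moved by about -0.74 for genes well above 0.1 FPKM. Near 0 the added 0.1 FPKM alters this, and ZmMAPKKK75 moved from 2.38 to 2.50. The split over all genes was then 5337 higher and 11737 lower, against 9922 higher and 6088 lower as deposited. The MEKK genes called higher were 10 instead of 14. The 4 genes no longer called were ZmMAPKKK6, ZmMAPKKK11, ZmMAPKKK13 and ZmMAPKKK76, and the 10 still called were ZmMAPKKK17 to ZmMAPKKK22, ZmMAPKKK75, ZmMAPKKK77, ZmMAPKKK79 and ZmMAPKKK80. Of these, ZmMAPKKK75, ZmMAPKKK77 and ZmMAPKKK80 stood against a root control at or next to 0, where the added 0.1 FPKM sets the fold. In leaf the same rescaling moved genes well above 0.1 FPKM by about 0.21 and in stem by about -0.08. Lower genes could move by more, as ZmMAPKKK18 did in leaf, from 2.91 to 3.27. All MEKK calls of leaf and stem were kept, and ZmMAPKKK8 was called in leaf as well. Centring root on the median of all genes left 12 MEKK genes higher, without ZmMAPKKK11 and ZmMAPKKK13.

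**Figure D2:**
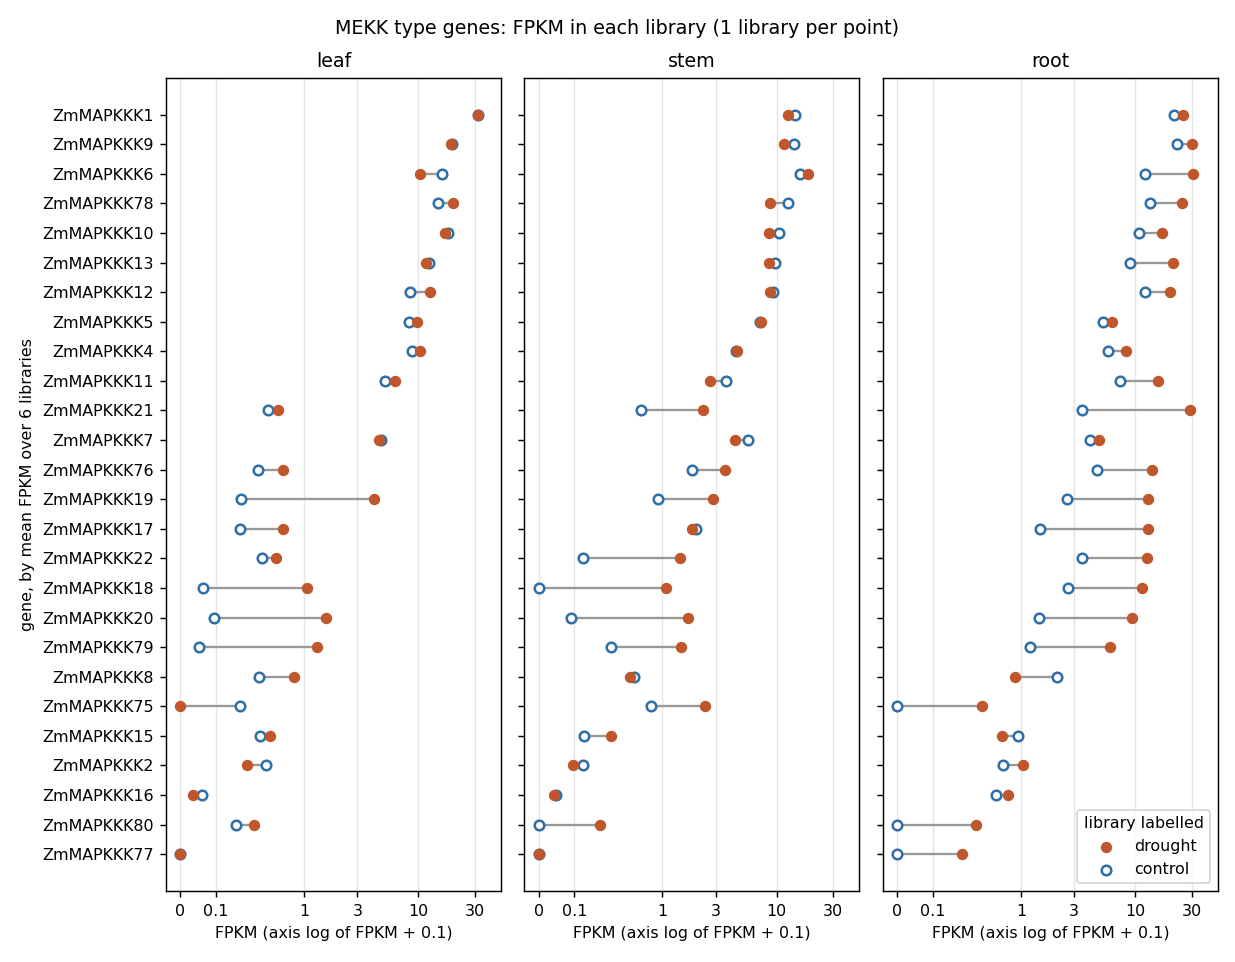
FPKM of the 26 MEKK genes (rows, ordered by mean over the 6 libraries) in the drought library (filled) and control library (open) of each tissue, on an axis logarithmic in FPKM + 0.1. The upper genes, with ZmMAPKKK1 between 12.5 and 31.9 FPKM, keep close pairs in leaf and stem, while ZmMAPKKK18, ZmMAPKKK19, ZmMAPKKK20 and ZmMAPKKK79 have wide gaps in every tissue.

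At least 1 FPKM was reached in all 6 libraries by 11 of the 26 MEKK genes, here called broadly expressed. A gene that is low in 1 library cannot be among them, so a small difference between treatments is in part fixed by this choice. None of these 11 was called in leaf or stem, where their log2 fold changes lay between -0.62 and 0.55 and between -0.49 and 0.23, and 3 were higher in the library labelled root drought. The highest was ZmMAPKKK1 (GRMZM2G140726), with 31.9 FPKM in drought leaf and 31.7 FPKM in control leaf, 12.5 FPKM in drought stem and 14.3 FPKM in control stem, and 25.5 and 21.4 FPKM in the libraries labelled drought and control of root. Its log2 fold changes were 0.01, -0.19 and 0.25 in leaf, stem and root, and the root value became -0.48 with equal sums. ZmMAPKKK9 (GRMZM2G156800) had 19.0 and 19.2 FPKM in drought and control leaf, 11.5 and 14.1 FPKM in drought and control stem, and 30.1 and 22.7 FPKM in the libraries labelled drought and control of root. It was called in no tissue, and its root log2 fold change of 0.41 became -0.33 with equal sums.

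The 3 broadly expressed genes higher in the library labelled root drought were ZmMAPKKK6, ZmMAPKKK11 and ZmMAPKKK13. ZmMAPKKK6 (AC209208.3_FG005) had 30.6 FPKM in the library labelled root drought and 12.0 FPKM in the library labelled root control, 10.3 FPKM in drought leaf and 15.9 FPKM in control leaf, and 18.3 FPKM in drought stem and 15.6 FPKM in control stem. It was the highest MEKK gene of both stem libraries and of the library labelled root drought, and its fold of 2.53 in root stood beside 0.65 in leaf. ZmMAPKKK11 (GRMZM2G066120) had 15.8 and 7.42 FPKM in the libraries labelled drought and control of root, 6.36 and 5.20 FPKM in drought and control leaf, and 2.65 and 3.64 FPKM in drought and control stem. ZmMAPKKK13 (GRMZM2G044557) had 21.1 and 9.00 FPKM in the libraries labelled drought and control of root, 11.7 and 12.4 FPKM in drought and control leaf, and 8.61 and 9.57 FPKM in drought and control stem. The root log2 fold changes of ZmMAPKKK6, ZmMAPKKK11 and ZmMAPKKK13 were 1.34, 1.08 and 1.22, and with equal sums 0.61, 0.35 and 0.49. Their percentile among the genes above 0 of each library, which no rescaling changes, was also higher in the library labelled root drought than in the library labelled root control, at 85.7 against 75.3 for ZmMAPKKK6, 74.4 against 66.0 for ZmMAPKKK11 and 79.9 against 69.8 for ZmMAPKKK13.

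The other 8 broadly expressed genes, which include ZmMAPKKK1 and ZmMAPKKK9, were called in no tissue. ZmMAPKKK78 had 24.9 FPKM in the library labelled root drought and 13.3 FPKM in the library labelled root control, a log2 fold change of 0.89 as deposited. ZmMAPKKK7 had 4.65 FPKM in drought leaf and 4.75 FPKM in control leaf. ZmMAPKKK4 and ZmMAPKKK5 were above their control in all tissues as deposited, by log2 fold changes of 0.02 to 0.52 for ZmMAPKKK4 and of 0.04 to 0.26 for ZmMAPKKK5.

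A group of 4 MEKK genes, ZmMAPKKK18, ZmMAPKKK19, ZmMAPKKK20 and ZmMAPKKK79, was called higher in drought in leaf, stem and root. In control leaf they lay between the 2.10 and the 14.5 percentile of the genes above 0. ZmMAPKKK19 has been predicted to act like NPK1 of tobacco. ZmMAPKKK19 (GRMZM2G165099) had 4.18 FPKM in drought leaf and 0.222 FPKM in control leaf, 2.85 FPKM in drought stem and 0.904 FPKM in control stem, and 12.9 and 2.60 FPKM in the libraries labelled drought and control of root. Its fold changes were 13.3, 2.94 and 4.82 in leaf, stem and root. In leaf its percentile among genes above 0 was 50.8 in drought and 14.5 in control.

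ZmMAPKKK18 (GRMZM2G305066) had 1.06 FPKM in drought leaf and 0.0543 FPKM in control leaf, 1.08 FPKM in drought stem and was listed at 0 in control stem, and 11.4 and 2.66 FPKM in the libraries labelled drought and control of root. No fold is given for stem, and the folds in leaf and root were 7.49 and 4.15. ZmMAPKKK20 (GRMZM2G476477) had 1.59 and 0.0919 FPKM in drought and control leaf, 1.72 and 0.0858 FPKM in drought and control stem, and 9.48 and 1.46 FPKM in the libraries labelled drought and control of root. Its folds were 8.82, 9.80 and 6.16 in leaf, stem and root. ZmMAPKKK79 (AC204050.4_FG006) had 1.33 and 0.0430 FPKM in drought and control leaf, 1.47 and 0.303 FPKM in drought and control stem, and 6.08 and 1.21 FPKM in the libraries labelled drought and control of root. With a pseudocount of 1 FPKM, ZmMAPKKK18 lost its call in leaf and ZmMAPKKK79 its call in stem. The paper's quantitative PCR of ZD619 leaf found ZmMAPKKK18 markedly up. There, ZmMAPKKK19 and ZmMAPKKK20 changed by less than 2-fold, without significance. In stem it found ZmMAPKKK18 and ZmMAPKKK19 up and ZmMAPKKK20 slightly up.

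ZmMAPKKK21 and ZmMAPKKK22 were called higher in stem and root and not in leaf. ZmMAPKKK21 (GRMZM2G173965) had 29.4 FPKM in the library labelled root drought and 3.52 FPKM in the library labelled root control, 2.32 FPKM in drought stem and 0.622 FPKM in control stem, and 0.567 FPKM in drought leaf and 0.450 FPKM in control leaf. In the library labelled root drought it was at the 85.0 percentile of genes above 0, close to ZmMAPKKK6 and ZmMAPKKK9, and in the library labelled root control at the 53.3 percentile. ZmMAPKKK22 (GRMZM2G041774) had 12.5 and 3.48 FPKM in the libraries labelled drought and control of root, 1.45 and 0.134 FPKM in drought and control stem, and 0.543 and 0.389 FPKM in drought and control leaf. Stem was where its fold was largest, at 6.61, beside 3.53 in root and 1.32 in leaf.

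ZmMAPKKK17 and ZmMAPKKK76 were called higher in root and not in stem. ZmMAPKKK17 (GRMZM2G439350) had 13.0 and 1.50 FPKM in the libraries labelled drought and control of root, 0.627 and 0.218 FPKM in drought and control leaf, and 1.84 and 2.00 FPKM in drought and control stem. It was called in root and leaf, with folds of 8.18 and 2.29, and its stem libraries were nearly level. ZmMAPKKK76 (GRMZM2G404078) had 13.8 and 4.68 FPKM in the libraries labelled drought and control of root, 3.59 and 1.85 FPKM in drought and control stem, and 0.635 and 0.354 FPKM in drought and control leaf. Only its root fold of 2.91 passed the threshold, and with equal sums its log2 fold changes were 0.91, 0.86 and 0.82 in leaf, stem and root, so it was then called in none.

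Summed over ZmMAPKKK17 to ZmMAPKKK22, ZmMAPKKK76 and ZmMAPKKK79, these 8 genes held 6.37% of the summed MEKK FPKM in drought leaf and 1.21% in control leaf, 14.1% in drought stem and 5.16% in control stem, and 34.2% in the library labelled root drought and 14.1% in the library labelled root control. A share within a library is not changed by rescaling. The 8 genes were put together after their values were seen, so their common direction is a description. The whole MEKK subfamily summed to 165 and 151 FPKM in drought and control leaf, 116 and 114 FPKM in drought and control stem, and 317 and 149 FPKM in the libraries labelled drought and control of root. The root sums differed by 1.09 on the log2 scale as deposited and by 0.35 with equal sums. The dehydrin genes and some of the PP2C genes described above moved against the label in the same root libraries, and their part in the MEKK result was not tested.

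**Figure D3:**
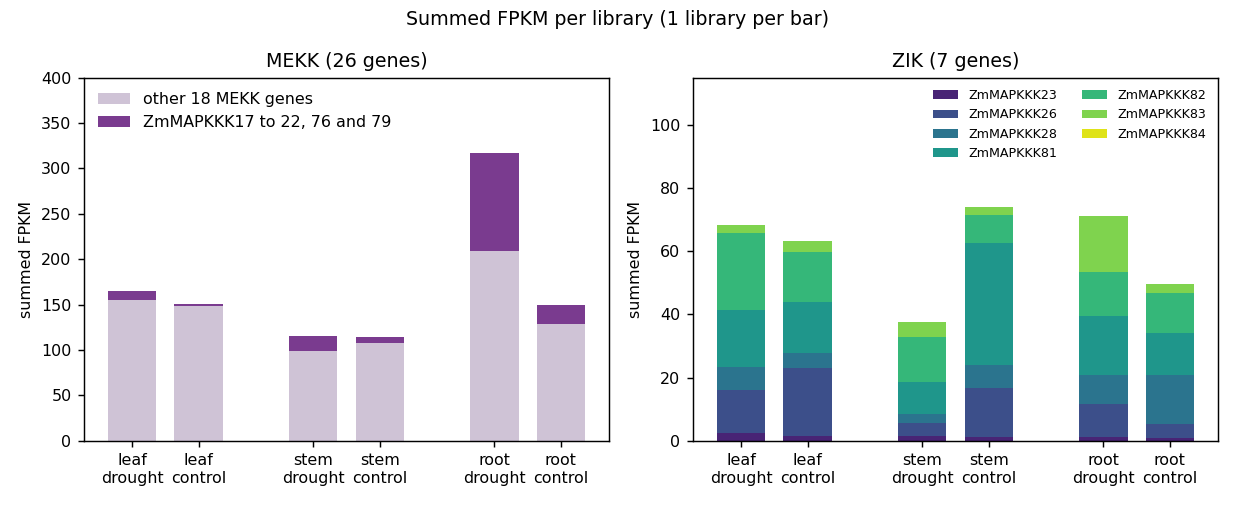
Summed FPKM per library, drought left of control in each tissue, for the MEKK genes (left, with ZmMAPKKK17 to ZmMAPKKK22, ZmMAPKKK76 and ZmMAPKKK79 in dark) and for the ZIK genes (right, 1 shade per gene). The MEKK bars are level in stem, at 116 FPKM in drought and 114 FPKM in control, and the ZIK bars are not, at 37.6 FPKM in drought and 74.1 FPKM in control.

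ZmMAPKKK8 was the one MEKK gene lower in the library labelled root drought. ZmMAPKKK8 (GRMZM2G034877) had 0.881 FPKM there and 2.13 FPKM in the library labelled root control, 0.805 FPKM in drought leaf and 0.362 FPKM in control leaf, and 0.482 FPKM in drought stem and 0.531 FPKM in control stem. Its root log2 fold change was -1.19, and the leaf value of 0.97 was just under the threshold and passed it with equal sums, at 1.20. With a pseudocount of 1 FPKM the root call was lost. ZmMAPKKK75 (GRMZM2G459824) had 2.40 FPKM in drought stem and 0.789 FPKM in control stem, a log2 fold change of 1.49. In leaf it was listed at 0 in drought and at 0.220 FPKM in control, and in root it had 0.422 FPKM in the library labelled drought and a value next to 0 in the library labelled control. It was called lower in leaf and higher in stem and root, and outside stem both calls set values under 1 FPKM against a library at or next to 0.

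The remaining MEKK genes were ZmMAPKKK2, ZmMAPKKK15, ZmMAPKKK16, ZmMAPKKK77 and ZmMAPKKK80, and all but ZmMAPKKK2 stayed under 1 FPKM in every library. ZmMAPKKK77 was listed at 0 in 5 libraries and at 0.252 FPKM in the library labelled root drought. ZmMAPKKK80 had 0.226 FPKM in drought stem and 0.365 FPKM in the library labelled root drought and was listed at 0 in both matching controls, with 0.321 FPKM in drought leaf and 0.197 FPKM in control leaf. ZmMAPKKK2, ZmMAPKKK15 and ZmMAPKKK16 were called in no tissue. ZmMAPKKK16 was the lowest of these 3 outside root, at 0.0285 to 0.0511 FPKM in leaf and stem, with 0.755 and 0.575 FPKM in the libraries labelled drought and control of root. FPKM this low come from few reads, whose number is unknown.

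The predicted place of the protein, computed from sequence and so not from these libraries, divided the MEKK genes along similar lines. Of the 11 predicted in the chloroplast, 5 of 10 kept were higher in drought leaf, 6 of 10 in drought stem and 11 of 11 in the library labelled root drought, and none was lower. Of the 10 predicted in the nucleus, none of 9 kept was higher in leaf or stem, and 1 of 10 was higher and 1 lower in root. The medians were 0.94, 1.63 and 2.05 for chloroplast and 0.21, -0.19 and 0.47 for nucleus in leaf, stem and root. Beside these root calls, 26.2% of all genes were higher in the library labelled root drought. The call was lost at equal sums by ZmMAPKKK6, ZmMAPKKK13 and ZmMAPKKK76 of the chloroplast group and by ZmMAPKKK11, the nuclear gene called higher. ZmMAPKKK77 and ZmMAPKKK80, also of the chloroplast group, had 0.252 and 0.365 FPKM there against a root control of 0. Both lost the call with a pseudocount of 1 FPKM, as did ZmMAPKKK11. The chloroplast group holds 7 of the 8 genes summed above, so place and level cannot be told apart here, and the prediction itself was not tested.

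**Figure D4:**
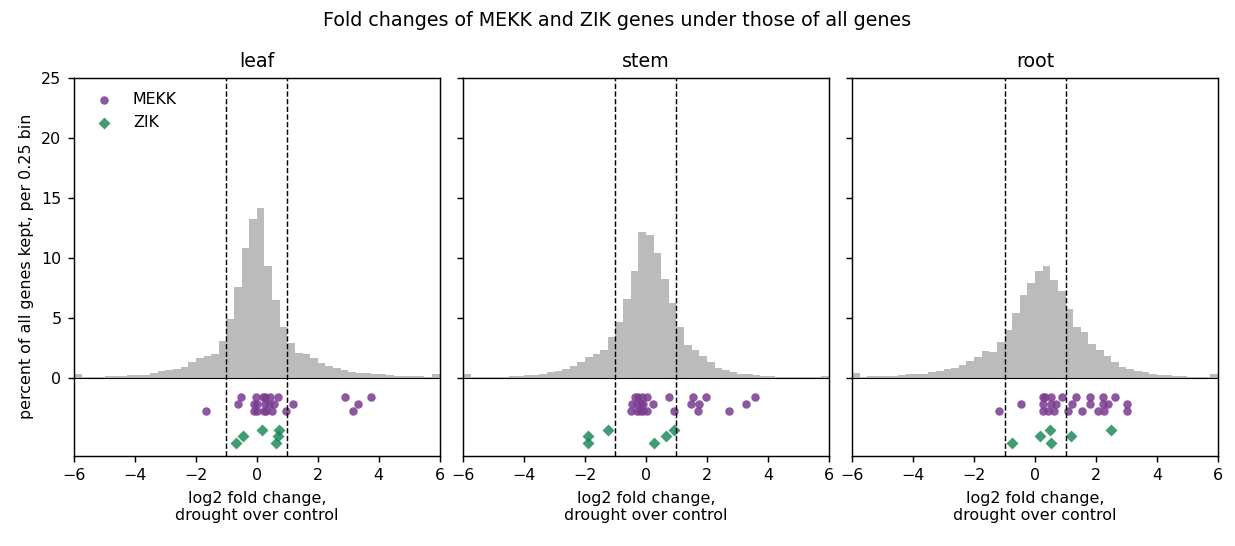
Log2 fold change of drought over control (horizontal axis) for all genes kept in each tissue (grey bars, percent per bin of 0.25, with the ends collecting the values beyond 6) and for each MEKK gene (circles) and ZIK gene (diamonds) below, with dashed lines at a fold of 2 and heights only to part the points. Genes listed at 0 in 1 library are placed by the pseudocount. In stem 8 MEKK genes lie right of the dashed lines and 3 ZIK genes lie left of them.

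The ZIK genes called in stem were all lower in drought, where the MEKK genes called were all higher. Of 7 ZIK genes with values, 6 were kept in each tissue. None was called in leaf, 3 were lower and none higher in drought stem, and 2 were higher and none lower in the library labelled root drought. The 2 of 6 higher in root, 33.3%, are near the 26.2% over all genes, and 15.2% of all genes were lower in stem. The medians were 0.39, -0.50 and 0.49 in leaf, stem and root. With so few genes they are loose, since the stem median was -0.13 with no filter, and the root median was -0.21 with equal sums. Summed ZIK expression was 68.4 and 63.2 FPKM in drought and control leaf, 37.6 and 74.1 FPKM in drought and control stem, and 71.0 and 49.8 FPKM in the libraries labelled drought and control of root. The difference in stem was -0.98 on the log2 scale and -0.37 without ZmMAPKKK81, its highest member.

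**Figure D5:**
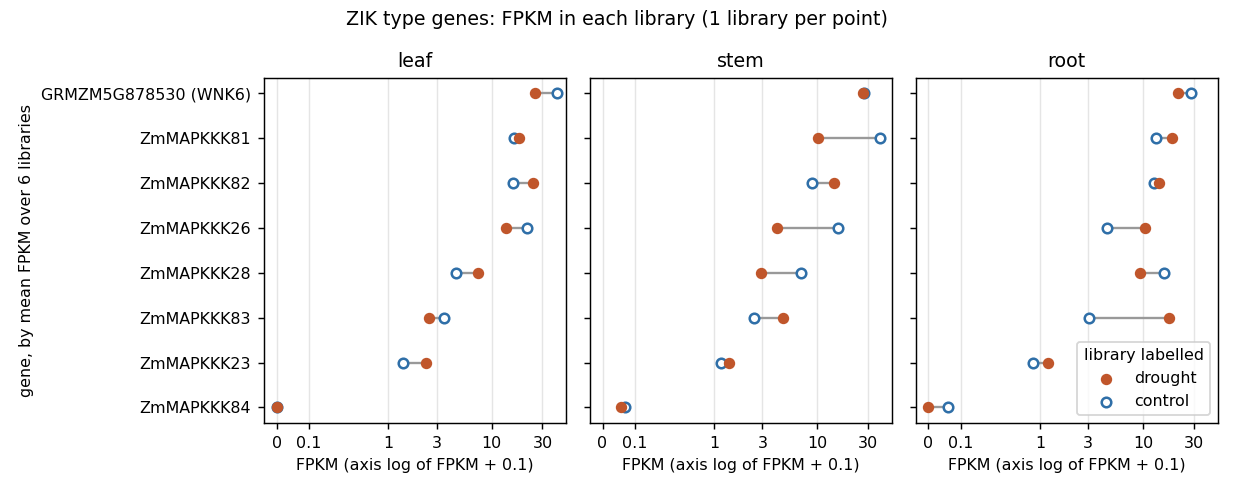
FPKM of the 7 ZIK genes with values and of GRMZM5G878530 (rows, ordered by mean over the 6 libraries) in the drought library (filled) and control library (open) of each tissue, on an axis logarithmic in FPKM + 0.1. In stem, ZmMAPKKK81, ZmMAPKKK26 and ZmMAPKKK28 have their drought points left of control, with ZmMAPKKK81 at 10.2 FPKM in drought and 38.7 FPKM in control.

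ZmMAPKKK81 (GRMZM2G032619) had 10.2 FPKM in drought stem and 38.7 FPKM in control stem, 18.1 and 16.2 FPKM in drought and control leaf, and 18.6 and 13.1 FPKM in the libraries labelled drought and control of root. Its stem log2 fold change was -1.92, close to that of ZmMAPKKK26. Its percentile in stem was 71.9 in drought and 92.1 in control.

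ZmMAPKKK26 (GRMZM2G021416) had 4.11 FPKM in drought stem and 15.7 FPKM in control stem, 13.6 FPKM in drought leaf and 21.7 FPKM in control leaf, and 10.3 and 4.54 FPKM in the libraries labelled drought and control of root. Its log2 fold changes were -0.67, -1.91 and 1.17 in leaf, stem and root. The root value fell under the threshold when centred on all genes, at 0.90, and with equal sums, at 0.44. ZmMAPKKK28 (GRMZM2G312970) had 2.89 and 7.07 FPKM in drought and control stem, 7.44 and 4.59 FPKM in drought and control leaf, and 9.26 and 15.6 FPKM in the libraries labelled drought and control of root. Its log2 fold changes were 0.69, -1.26 and -0.75, so it was the one kept ZIK gene lower in the library labelled root drought, and the root value passed the threshold when centred, at -1.02, and with equal sums, at -1.48.

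ZmMAPKKK83 (GRMZM2G023444) had 17.6 FPKM in the library labelled root drought and 3.05 FPKM in the library labelled root control, 2.52 and 3.51 FPKM in drought and control leaf, and 4.75 and 2.49 FPKM in drought and control stem. Its root fold was 5.61, and the root log2 fold change of 2.49 stayed at 1.77 with equal sums. ZmMAPKKK82 (GRMZM2G034779) had 24.3 and 15.8 FPKM in drought and control leaf, 14.2 and 8.91 FPKM in drought and control stem, and 14.0 and 12.6 FPKM in the libraries labelled drought and control of root. It was called in no tissue, with log2 fold changes of 0.62, 0.66 and 0.15, the last turning to -0.59 with equal sums.

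ZmMAPKKK23 stayed between 0.846 and 2.37 FPKM and was called in no tissue, with log2 fold changes of 0.71, 0.26 and 0.48 in leaf, stem and root. ZmMAPKKK84 was at most 0.0636 FPKM in any library and was not kept. ZmMAPKKK24 is listed under GRMZM2G878530, which was not among the identifiers analysed here. GRMZM5G878530, whose digits end alike and which RefSeq names WNK6 on chromosome 5, had 25.7 and 40.8 FPKM in drought and control leaf, 26.6 and 27.3 FPKM in drought and control stem, and 21.4 and 27.9 FPKM in the libraries labelled drought and control of root. Its log2 fold changes were -0.66, -0.04 and -0.38. Whether it is ZmMAPKKK24 is not known, so it was kept out of the ZIK counts, and adding it changed no count of calls but brought the ZIK medians to 0.16 in leaf and -0.04 in stem.

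The Raf type genes are the third MAPKKK subfamily of the same list and include regulators of ethylene signalling in Arabidopsis. In leaf 2 of 32 Raf genes kept were higher in drought and 1 was lower, in stem none was higher and 1 was lower, and in root 7 of 30 were higher and 1 lower in the library labelled drought. The 23.3% higher in root are near the 26.2% over all genes, and in leaf and stem the Raf shares were below the 15.1% and 15.8% of all genes higher. Their medians were 0.04, 0.00 and 0.48 in leaf, stem and root. The subfamilies were set side by side by these counts alone, and their difference was not tested.

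Further down the cascade, 10 genes for MAPKK and MAPK proteins were followed. Most were found by name, but ZmMKK10-2, ZmMPK3-1 and ZmMPK15 were added because the paper lists them among its differentially expressed genes. That choice used these same libraries, so the counts below are in part fixed by it. Each added gene was called lower in stem and higher in the library labelled root drought. In leaf 2 of the 10 were higher in drought and none was lower, in stem none was higher and 4 were lower, and in root 4 were higher and none lower in the library labelled drought. Over all genes 15.1% were higher in leaf, 15.2% lower in stem and 26.2% higher in root. Their medians were -0.26, -0.46 and 0.87. The 2 calls in leaf were for ZmMKK10-2, a MAPKK, and ZmMPK3-1, a MAPK, and both were also among the 4 lower genes of stem, the direction of the called ZIK genes there. MKK3, a MAPKK that in Arabidopsis is activated by MEKK type kinases under abscisic acid, had 21.3 and 26.0 FPKM in drought and control leaf, 17.2 and 23.2 FPKM in drought and control stem, and 18.0 and 16.4 FPKM in the libraries labelled drought and control of root. MKK3 was called in no tissue.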

How the data were processed

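RNA of leaf, stem and root was sequenced from drought and control plants, with 1 library for each. Per the paper's methods and the labels, the authors aligned reads with TopHat to maize B73 and ran Cufflinks and Cuffdiff. Versions and genome release were not given in the sources used here. The deposited tables hold FPKM, 1 table per tissue with a drought and a control column, taken as normalized within the pair, which is not stated. Levels of different tissues are therefore set side by side, and differences between tissues in level were not tested. The authors' log2 ratio column in the tables was not used. Read counts per gene were not used here, so counting error per gene is unknown, and read sharing between similar members was not examined. The paper's supplement gives the aligned reads of each library, and the library labelled root drought had the lowest mapping rate. Steps in the low FPKM values put 1 read at 1.15, 0.865 and 1.25 times as much FPKM in drought as in control for leaf, stem and root. The FPKM of a library summed to between 544251 and 908668, and between 37881 and 40428 genes were above 0.

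Log2 fold changes were computed as drought over control with 0.1 FPKM added, for genes whose pair averaged 0.1 FPKM or more. A fold over 2 was called, with no p-value within a tissue. A test across tissues, with tissue as a block, was added after seeing the data with limma 3.58.1 in R 4.3.3 on genes with a mean of 0.1 FPKM or more over the 6 libraries, with Benjamini-Hochberg adjustment over all of them. A member was given with all its values if called in a tissue where its higher library reached 1 FPKM, or if among the 3 highest MEKK or 2 highest ZIK genes by mean FPKM. Members and lists were chosen with earlier results of these data known. RefSeq names (assembly Zm-B73-REFERENCE-NAM-5.0) matched 13 members and were used for names and the chromosome given. Alternatives were pseudocounts of 0.01 and 1 FPKM, no filter, a filter at 1 FPKM, centring on all genes, a fold over 4, equal library sums and GRMZM5G878530 as a member. Equal sums, for counts, medians and single genes, and GRMZM5G878530 were chosen after seeing the data. Single values of some listed genes are not reported here. The calculation was tested on simulated data. Python 3.11.15, numpy 2.4.6, pandas 2.3.3 and matplotlib 3.10.9 were used.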

Additional observations from a re-analysis of the deposited data

Results flagged for a closer look

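ZmMAPKKK26, a ZIK type kinase gene, was called in opposite directions in different tissues. Its log2 fold change of drought over control was -1.91 in stem, with 4.11 FPKM in drought and 15.7 FPKM in control, and 1.17 in root, with 10.3 FPKM in the library labelled drought and 4.54 FPKM in the library labelled control. The difference between tissues was not tested, and the root value was under the threshold with the libraries centred or rescaled to equal sums. The root libraries also went against their labels in the dehydrin genes and some of the PP2C genes.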

How the results depend on the processing

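The tissues pair the drought and control libraries, and with the tissue as a block no member passed an adjusted p of 0.05 in limma, whether as deposited, with equal sums or without the root pair. No replicate could be left out, since each tissue and treatment had 1 library. With a pseudocount of 1 FPKM, MEKK genes called higher numbered 3 in leaf and 5 in stem, and 0 were lower in leaf and in root. With a mean of at least 1 FPKM, 1 of 12 MEKK genes kept was higher and 0 lower in leaf, and 3 of 16 were higher in stem. At a fold over 4, 3 MEKK genes were higher in stem and 8 in the library labelled root drought, 0 were lower in leaf and root, 0 ZIK genes were lower in stem and 1 was higher in root. Centred on all genes, 1 ZIK gene was higher and 1 lower in root, beside 20.2% of all genes higher and 20.5% lower. With equal sums, 2 MEKK genes and 1 ZIK gene were lower in root and 1 ZIK gene was higher, beside 31.0% of all genes lower and 14.1% higher. The root medians were then 0.42 for MEKK and -0.21 for ZIK, and the log2 differences of the summed FPKM in root were 0.35 for MEKK and -0.23 for ZIK. Shares over all genes are not given here for the other settings. Without ZmMAPKKK81 the summed ZIK difference in stem was -0.37. A pseudocount of 0.01 FPKM and no filter left every count of calls within 1.5 times. The limits are the single library of each kind, the unknown read counts behind values under 1 FPKM, the scaling of the root libraries and the root labels.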
